A study of Mus musculus with 10 samples.

Results

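The syndecans are a family of 4 transmembrane proteoglycans, encoded in the mouse by Sdc1, Sdc2, Sdc3 and Sdc4. The p63 binding sites described here are the peaks of 1 list of p63 chromatin immunoprecipitation sequencing (ChIP-seq) in mouse keratinocytes whose midpoint lay inside one of these genes or within 100 kb of its annotated ends. Of 8451 p63 peaks in the list, 19 met that rule: 13 at Sdc1, 5 at Sdc4, 1 at Sdc3 and 0 at Sdc2. The regions were chosen by the positions of the peaks themselves, with the dense group at Sdc1 already known, so the counts are a description and carry no test.

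The list came from a p63 ChIP group of 2 libraries, 1 from each of 2 similar mouse keratinocyte lines, MK1 and MK2, precipitated with the antibody 4A4, which recognises p63. The labels name no genotype or treatment for either line. The series also holds 2 libraries each of H3K4me1, H3K4me3 and H3K27ac ChIP and of input chromatin, which were not analysed here. The list gives positions and no heights, so the depth behind a peak is unknown, MK1 and MK2 cannot be set side by side, and a gene without a peak may have too few reads there or no binding. The keratinocyte identity of the lines was taken from the labels, since a peak list holds no expression of marker genes.

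A syndecan has an extracellular part that carries heparan sulfate and in some members chondroitin sulfate chains, 1 membrane-spanning segment and a short conserved cytoplasmic tail. Through the chains it binds growth factors and matrix proteins, and through the tail it meets PDZ proteins and the actin cytoskeleton. Sdc1 is the main syndecan of keratinocytes and other epithelial cells, Sdc2 is known best from fibroblasts and endothelium, Sdc3 from the nervous system, and Sdc4 is widely made and sits at focal adhesions. p63 is the p53-family factor that specifies stratified epithelia, and it binds DNA at paired p53-type repeats, each with a core of C, 2 bases that are A or T, and G.

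No p63 peak touched the 250 bases upstream of the start of Sdc1, Sdc3 or Sdc4. Of all 32851 RefSeq promoter windows of this length, 342 (1.04%) were touched by a peak, so the absence is the usual state of a promoter in this list and not a feature of the family. Those windows are shown as the sequence at the starts from which peak distances are given. They are RefSeq sequence of the assembly GRCm38.p6, whose chromosome coordinates are those of mm10, and each reads 5′ to 3′ on the gene's strand. Capitals mark each core, which is CATG, the similar palindrome CTAG, or CAAG, read on the opposite strand as CTTG. RefSeq promoter sequence was matched for 3 of the 4 members, Sdc2 being the other.

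Sdc1, chr12:8771146-8771395, plus strand: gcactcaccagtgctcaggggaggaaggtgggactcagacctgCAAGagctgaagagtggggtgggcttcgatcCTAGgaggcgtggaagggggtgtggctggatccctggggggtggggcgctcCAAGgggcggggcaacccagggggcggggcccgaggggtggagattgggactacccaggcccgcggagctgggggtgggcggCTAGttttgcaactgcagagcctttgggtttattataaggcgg
Sdc3, chr4:130792287-130792536, plus strand: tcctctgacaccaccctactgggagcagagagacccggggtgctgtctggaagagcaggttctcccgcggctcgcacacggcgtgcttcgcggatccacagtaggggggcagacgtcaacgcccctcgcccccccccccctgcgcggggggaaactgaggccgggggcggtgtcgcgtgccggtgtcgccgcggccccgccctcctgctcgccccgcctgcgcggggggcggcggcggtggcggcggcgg
Sdc4, chr2:164443189-164443438, minus strand: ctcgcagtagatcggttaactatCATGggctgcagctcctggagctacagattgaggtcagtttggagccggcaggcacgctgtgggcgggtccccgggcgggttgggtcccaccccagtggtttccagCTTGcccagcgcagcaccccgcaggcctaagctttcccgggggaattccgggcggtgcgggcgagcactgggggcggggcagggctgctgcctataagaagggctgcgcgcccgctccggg

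The Sdc1 window held 4 cores, none of them CATG, the Sdc4 window held 2, of which 1 was CATG, and the Sdc3 window held 0. At least 1 core stood in 96.5% of all those windows, and the CATG form in 53.9%. No window of the 3 held a pair of cores separated by 6 bases (the spacing CNNGNNNNNNCNNG, searched with A or T at both inner bases of each core), which 5.84% of all windows did. The G and C content was 66.0% at Sdc1, 76.4% at Sdc3 and 68.0% at Sdc4. Measured to the nearest edge, the closest peak was 4.698 kb from the Sdc1 window, 9.996 kb from the Sdc4 window and 75.578 kb from the Sdc3 window. The sequence under the peaks themselves was not used here.

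Sdc1 spans 22.321 kb of chromosome 12, at 8771396 to 8793716 on the plus strand. Its 13 peaks comprised 1 before the start of the gene, 4 inside it and 8 beyond its end. Across the 21779 protein-coding genes of the annotation, the median gene had 1 peak inside or within 100 kb, and 55.2% had at least 1. At least 13 peaks were counted for 7 genes (0.0321%). These were Cfap43 with 17, Slk with 14, and Sdc1, Sorcs2, Nectin1, Sik1 and Sfr1 with 13 each. Cfap43, Slk and Sfr1 neighbour one another on chromosome 19 and count many of the same peaks.

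**Figure D1:**
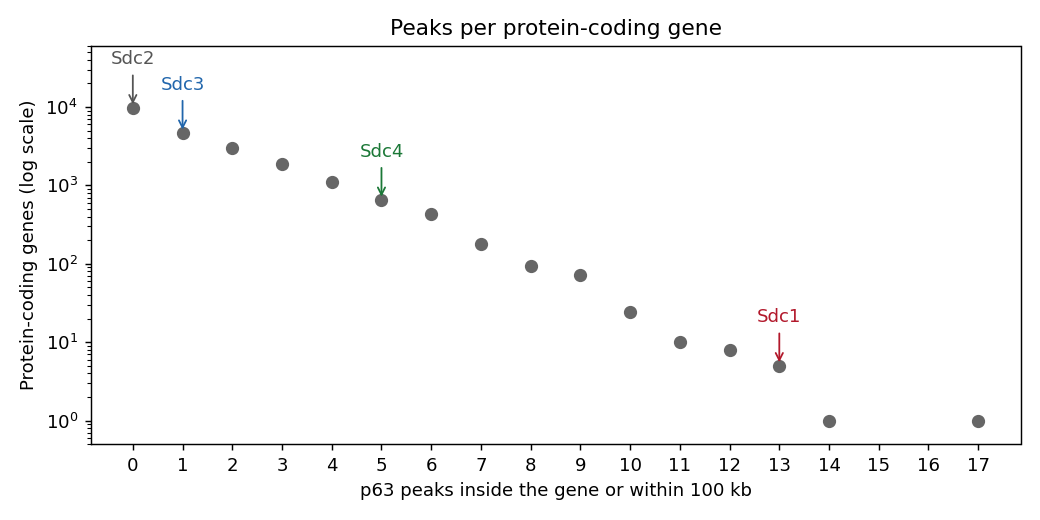
Points give the number of protein-coding genes (log scale) by the number of p63 peaks inside the gene or within 100 kb, with the 4 syndecan genes marked. Sdc1 lies in the far tail at 13 peaks, Sdc4 at 5, Sdc3 at 1 and Sdc2 at 0.

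The Sdc1 peaks fell into 3 chains of 4 peaks and 1 single peak, when peaks with at most 10 kb between their edges were joined. The first chain lay inside the gene, the next just beyond its end, and the last in the DNA between Sdc1 and the next protein-coding gene, Laptm4a. Chains of 4 or more were 70 of the 7020 chains and single peaks of the whole list, or 0.997%. Of protein-coding genes, 325 (1.49%) had at least 1 such chain within 100 kb and 1 had at least 3 (0.00459%), which was Sdc1. The count of at least 3 was taken from the arrangement already seen at Sdc1, so the place of Sdc1 in it is built in. That arrangement also depends on the joining limit and on whether very close peaks are counted apart, as given under the processing.

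The single peak upstream spanned 8762359 to 8762924, a width of 566 bp. Its midpoint was 8.755 kb before the Sdc1 start and 10.058 kb beyond Pum2, which encodes a Pumilio RNA-binding protein. It lay in neither gene and also outside Gm4755, a long noncoding RNA gene at 8765788 to 8771271 on the opposite strand, whose upper end is 0.125 kb from the Sdc1 start. A gap of 13.168 kb separated it from the first peak inside the gene, and 105.454 kb separated it from the next peak on its other side.

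The chain inside Sdc1 covered 6.970 kb, from 8776093 to 8783062. Its first peak spanned 8776093 to 8776347 (255 bp), with its midpoint 4.824 kb downstream of the start. The second, at 8778148 to 8778589 (442 bp), was 6.972 kb from the start. The next, at 8782070 to 8782507 (438 bp), was 10.892 kb from the start, and the last, at 8782640 to 8783062 (423 bp), was 11.455 kb from it. The remaining 10.865 kb from that midpoint to the end of the gene held no further peak. The gene table has no exons, so an intron could not be told from an exon.

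The last 2 peaks of this chain were 132 bp apart. Of 8430 neighbouring pairs in the whole list, 44 (0.522%) were as close. The other gaps in the chain were 1.8 kb and 3.48 kb, against a median of 75.1 kb over all pairs.

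The chain beyond the end covered 12.922 kb, from 8799847 to 8812768. Its first peak, at 8799847 to 8800207 (361 bp), had its midpoint 6.311 kb past the gene's end. The next, at 8805424 to 8805650, was the narrowest at Sdc1, with 227 bp, and was 11.821 kb past the end. The peak after it, at 8811159 to 8812060, was the widest of all peaks at syndecan genes, with 902 bp, and was 17.893 kb past the end. In the whole list 44 peaks (0.521%) were at least that wide. The last, at 8812354 to 8812768 (415 bp), followed it after a gap of 293 bp and lay 18.845 kb past the end. Sdc1 was the nearest protein-coding gene of all 4 peaks, and no other annotated gene covered them.

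The chain farthest from the gene was looser, covering 25.984 kb from 8859696 to 8885679, and began 46.927 kb after the one before it. Its peaks spanned 8859696 to 8860095 (400 bp), 8868629 to 8868927 (299 bp), 8877474 to 8877787 (314 bp) and 8885292 to 8885679 (388 bp). They lay between 66.179 and 91.769 kb past the end of Sdc1. The gaps between them were close to even, at 8.533, 8.546 and 7.504 kb. The nearest protein-coding gene of all 4 was Laptm4a, which encodes a lysosomal membrane protein, at 35.822 to 61.412 kb. The last 2 peaks lay inside the long noncoding RNA gene 9930038B18Rik, and the very last also inside Gm33483.

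Of the 13 peaks at Sdc1, 9 therefore had Sdc1 as their nearest protein-coding gene, and those were the 9 within 25 kb. At least 9 peaks inside or within 25 kb were counted for 14 protein-coding genes (0.0643%), among them Pkp1, Foxp1 and Amotl1 with 10 each. Sdc1 is short among them: at 22.321 kb it was the shortest of the 14, and Pkp1 was next. At least 4 peaks inside the gene were found in 192 protein-coding genes (0.882%). Of the 12426 protein-coding genes no longer than Sdc1, 3 had that many (0.0241%), namely Sdc1, Wnt4 and Inava. Sdc1 sets the upper length limit of that set, and Wnt4 (21.867 kb) and Inava (20.772 kb) lie close to it. Shorter genes have less room for peaks, so this is not a share among genes of like length.

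**Figure D2:**
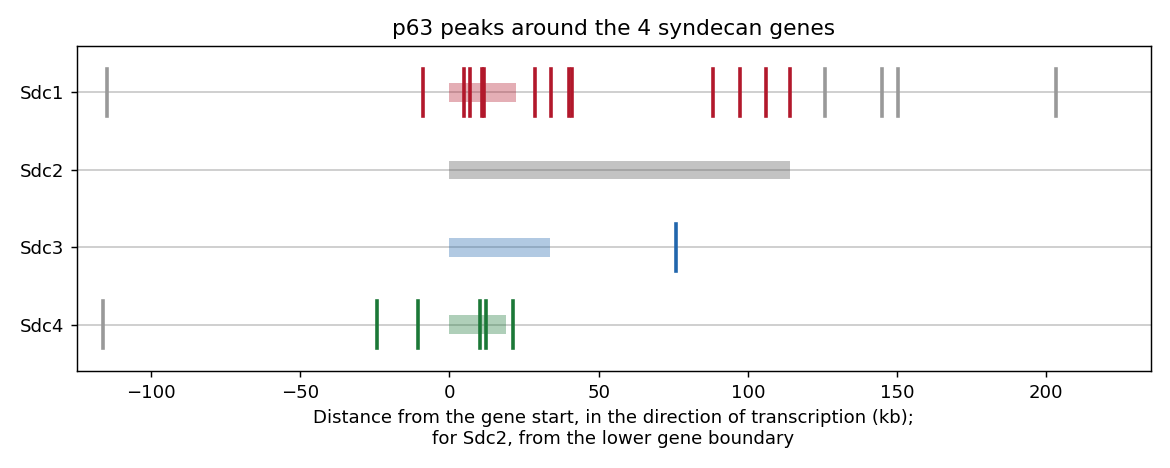
p63 peaks (vertical bars) around Sdc1, Sdc2, Sdc3 and Sdc4, plotted by distance in kb from the gene start in the direction of transcription, or from the lower boundary for Sdc2, with the gene body as a shaded box. Coloured bars are the 13, 1 and 5 peaks within 100 kb of Sdc1, Sdc3 and Sdc4, grey bars lie farther away, and Sdc2 has none in the span drawn.

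The dense stretch did not stop at 100 kb. The outermost peak counted for Sdc1 was 91.769 kb from the gene, and the first beyond the limit, at 8897156 to 8897402, was 103.563 kb away. It was followed by peaks at 8916291 to 8916647 and 8921477 to 8921855, the last of them inside Laptm4a. In windows of 100 kb that start at a peak, the fullest at Sdc1 held 10 peaks and 2 separate windows elsewhere held more, with 11. In windows of 200 kb, the stretch from 8762359 to 8921855 held 16 peaks, and no window elsewhere reached that number. The median window held 2 peaks at both sizes.

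The window at Sdc1 was set beside the other 4 separate windows of 100 kb with 10 or more peaks. Among these it had both the closest pair and the largest gap. Where overlapping windows held equally many peaks, the first was taken. At Sdc1 the stretch from 8776093 to 8868927 held as many, so the windows are not ranked by span. The 10 peaks of the window taken at Sdc1 spanned 97.737 kb, against 60.115 kb for 11 peaks at Col17a1, which encodes a hemidesmosomal collagen. The 10 peaks at the protein kinase gene Sik1 spanned 87.959 kb. The window at Pkp1, the gene of the desmosomal protein plakophilin 1, and Tnnt2 spanned 95.849 kb with 10 peaks. A window on chromosome 1 without a protein-coding gene spanned 80.635 kb with 11. The largest gap was 46.927 kb at Sdc1, against 17.246 to 28.086 kb in the other windows. The smallest gap was 132 bp at Sdc1, against 573 to 1711 bp. Inside protein-coding genes lay 4 of the 10 peaks at Sdc1, 3 of 11 at Col17a1, 7 of 10 at Pkp1 and Tnnt2, and 0 in the windows at Sik1 and on chromosome 1. These windows were chosen for their peaks, so the differences among them are a description.

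Sdc4 spans 18.942 kb of chromosome 2, at 164424247 to 164443188 on the minus strand, and had 5 peaks, all within 25 kb. Of protein-coding genes, 213 (0.978%) had at least 5 peaks inside or within 25 kb and 1472 (6.76%) within 100 kb. A pair of peaks lay inside the gene. One, at 164432806 to 164433193 (388 bp), was 10.189 kb downstream of the start, and the other, at 164430803 to 164431063 (261 bp), was 12.255 kb downstream. The gap between them was 1.742 kb. At least 2 peaks inside were found in 894 protein-coding genes (4.10%), and in 48 of the 11463 genes no longer than Sdc4 (0.419%). Sdc4 sets the upper length limit of that set, so this is not a share among genes of like length.

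Another peak stood just past the end of Sdc4, at 164421660 to 164422074 (415 bp), with its midpoint 2.380 kb away. It formed a chain of 3 with the 2 inside the gene. The neighbour on that side is Rbpjl, which encodes a transcription factor of the RBP-J family and had no peak in its body. The remaining pair lay upstream. The peak at 164453581 to 164453777, 10.491 kb before the Sdc4 start, was the narrowest at any syndecan, with 197 bp. Its nearest gene was Sys1, which encodes a Golgi membrane protein, at 3.251 kb. The peak at 164467162 to 164467503 (342 bp), 24.144 kb before the start, lay inside Sys1, Trp53tg5 and Dbndd2, whose annotated extents overlap there. The next peak on that side, 116.069 kb from Sdc4, was outside the limit and nearest to Wfdc2.

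Sdc3 spans 33.782 kb of chromosome 4, at 130792537 to 130826318 on the plus strand, and had 1 peak. It spanned 130868114 to 130868561 (448 bp) with its midpoint 42.019 kb past the end of the gene. The next protein-coding gene on that side, Laptm5, which encodes a lysosomal membrane protein of blood cells, was 44.553 kb from the same midpoint. The peak stood alone, with gaps of 694.454 kb and 327.386 kb to its neighbours. As 55.2% of protein-coding genes had at least 1 peak at this reach, the count at Sdc3 equalled the median of 1.

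Sdc2 spans 113.999 kb of chromosome 15, at 32920723 to 33034721, and had 0 peaks inside or within 250 kb. The nearest, at 32320749 to 32321051, was 599.823 kb below the gene, and the nearest above it, at 33951617 to 33951835, was 917.005 kb away. Of protein-coding genes, 12.3% were at least as far from a peak. The stretch without peaks around Sdc2 was 1.63 Mb long and held 3 protein-coding genes: Sdc2, Cpq, which encodes a carboxypeptidase, and Tspyl5. Of the 8430 gaps between neighbouring peaks, 326 (3.87%) were at least that long. Among the 2039 protein-coding genes at least as long as Sdc2, 59.9% had a peak inside or within 100 kb. Sdc2 sets the lower length limit of that set.

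Ordered by peaks within 100 kb, the family ran from Sdc1 with 13 over Sdc4 with 5 and Sdc3 with 1 to Sdc2 with 0. Sdc1 and Sdc4 are also the 2 shortest members. In transcriptional direction 3 of the 19 peaks lay before a gene's start, 6 inside and 10 beyond the end. Of the 10 beyond the end, 8 were at Sdc1, whereas Sdc4 had 2 before its start and 1 beyond its end. Both genes with peaks inside held a neighbouring pair with nearly the same gap, 1.8 kb at Sdc1 and 1.742 kb at Sdc4. Of all neighbouring pairs 5.40% and 5.26% were as close. Inside Sdc1 the other gaps were 3.48 kb and 0.132 kb, and the likeness was noticed after the values were seen. All 5 Sdc4 peaks were within 25 kb of the gene, as were 9 of the 13 at Sdc1, whereas the Sdc3 peak was not.

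Width was not used to choose the peaks. The 13 peaks at Sdc1 had a median width of 400 bp (range 227 to 902), and the 5 at Sdc4 had one of 342 bp (range 197 to 415), against 305 bp over all 8451 peaks (quartiles 242 and 392). Of the 19 peaks, 14 were wider than that median, comprising 10 of 13 at Sdc1, 3 of 5 at Sdc4 and the 1 at Sdc3. By rank among all peaks, the 902 bp peak stood at the 99.5th percentile and the 566 bp peak upstream of Sdc1 at the 93.8th. The 4 peaks inside Sdc1 stood at the 30.8th, 83.4th, 82.8th and 80.8th. Peaks of 1 locus are not replicates, so this difference was not tested.

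**Figure D3:**
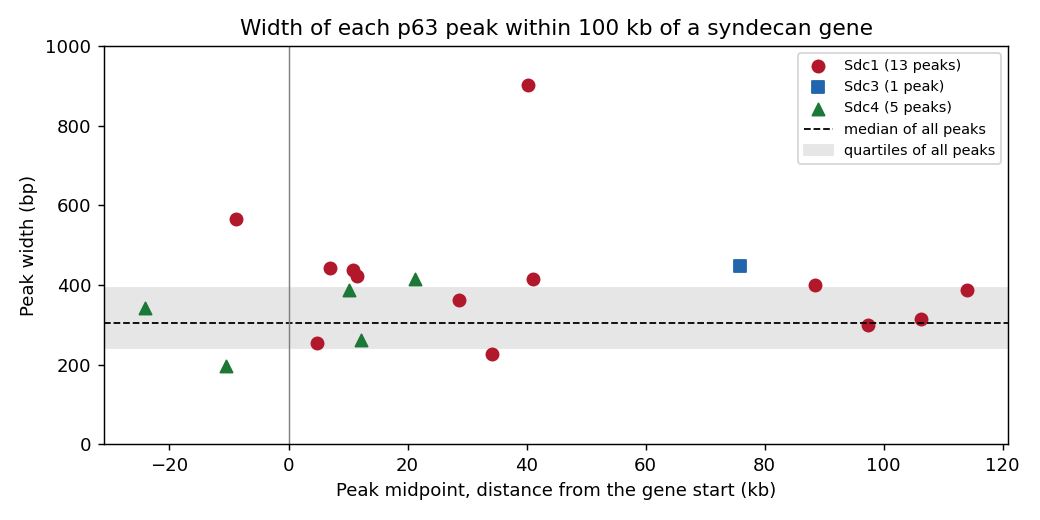
Width in bp of each p63 peak within 100 kb of Sdc1, Sdc3 and Sdc4, against the distance of its midpoint from the gene start in kb, with the median (dashed) and quartiles (grey band) of all 8451 peaks. Of the 19 peaks 14 lie above the median of 305 bp, and the widest, at 902 bp, lies 40.213 kb from the Sdc1 start.

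The genes that make, trim, shed or bind syndecan chains were then looked at in 5 lists of 73 genes, all matched in the annotation. The lists were chosen with earlier results of these data known. Their shares and intervals are therefore a description and no test against the share over all genes. A peak inside or within 25 kb was counted for 29.7% of all protein-coding genes. That share, like the median over all genes given below, was not matched to the lists for gene length. A longer gene has more room for peaks, and the part played by length was not tested. Proteins that bind syndecans outside the cell or signal with them had one in 13 of 16 cases (81.2%, 95% Wilson interval 57.0 to 93.4). Their median was 3.5 peaks, against 0 over all protein-coding genes. Lama3, which encodes a laminin chain of the epidermal basement membrane whose protein is a ligand of syndecan 1, had 8 peaks within 25 kb. Itga6, the integrin alpha 6 gene, and Fgfr2, the gene of a receptor that needs heparan sulfate to bind its ligands, had 4 each. The 3 genes without a peak were Fgf2, Fgf7 and Fn1, named after their values were seen. Itgb4, which encodes the hemidesmosomal integrin beta 4, also had 4, as did Wnt3a, Igf1r and Itgb5. These last genes were named after their values were seen. Counting a peak for its nearest gene alone left 7 at Lama3, 3 at Itga6 and 2 at Itgb4. Fgfr2, Wnt3a, Igf1r and Itgb5 kept 4 each.

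The machinery of the chains was nearer to the general share. Among enzymes of heparan sulfate synthesis, 10 of 26 genes had a peak within 25 kb (38.5%, interval 22.4 to 57.5). Ext1, which encodes a subunit of the polymerase that extends the chain, had 5, all of them inside the gene. Hs3st6, the gene of a 3-O-sulfotransferase, and Extl3, which encodes a glycosyltransferase that starts the chain, had 2 each. Ext2, whose product forms the polymerase with that of Ext1, had 0 within 100 kb. It was named after its value was seen.

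Other heparan sulfate proteoglycans had a peak in 5 of 12 cases (41.7%, interval 19.3 to 68.0). Col18a1, which encodes a basement membrane collagen with heparan sulfate chains, had 6. Cd44, the gene of the hyaluronan receptor that can carry such chains, and Hspg2, the gene of perlecan, had 4 each. Counted for the nearest gene alone, Hspg2 had 2, while Cd44 kept 4 and Col18a1 kept 6. Of the glypicans, which are held at the membrane by a lipid anchor, Gpc4 had 3 and the other members listed had none within 25 kb, a feature noticed after the values were seen.

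Genes of chain trimming and shedding had a peak in 5 of 9 cases (55.6%, interval 26.7 to 81.1). Sulf1, which encodes a sulfatase that removes 6-O-sulfate from the chains, and Mmp14, which encodes a membrane metalloproteinase able to cleave syndecan 1, had 2 each. Adam17, the gene of a syndecan sheddase, had 1. Within 100 kb all 9 had a peak, where 55.2% of all protein-coding genes did. Cytoplasmic partners had a peak in 5 of 10 cases (50.0%, interval 23.7 to 76.3). That list holds Sdccag8, the gene of a centrosomal protein that is not a known syndecan partner, which had 0. Without it the count was 5 of 9 (55.6%, interval 26.7 to 81.1). Tiam1, the gene of a Rac activator that binds the tail of syndecan 1, had 9, and Prkca, whose product protein kinase C alpha binds syndecan 4, had 4. Actn4, which encodes an actin crosslinker, also had 4 within 25 kb, of which 1 had Actn4 as its nearest gene. Sdcbp, the gene of syntenin, the PDZ partner of all syndecans, had 0 within 25 kb and 1 within 100 kb. It was named for its role after its value was seen.

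**Figure D4:**
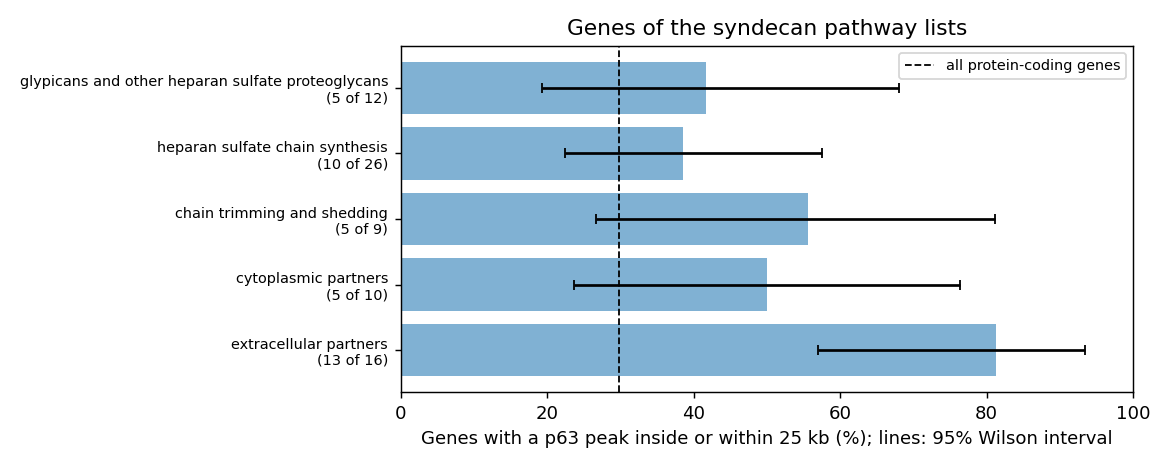
Share in % of the genes of 5 syndecan pathway lists with a p63 peak inside or within 25 kb, with 95% Wilson intervals, which cover counting error only, and the share over all protein-coding genes (dashed, 29.7%). The list of extracellular partners is highest at 81.2% and heparan sulfate synthesis lowest at 38.5%. The lists were chosen with earlier results of these data known, so the intervals are no test against the dashed line.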

How the data were processed

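The authors' deposited file holds p63 peak positions, 0-based starts and ends with no score, on mm10. The labels state that IDR, the irreproducible discovery rate method for peaks shared by replicates, was applied to MK1 and MK2, so a site of 1 line alone should be missing. Per the labels' protocols, 50 bp single-end reads were taken. Per the submitters' processing notes, Bowtie 1.1.1 and SAMtools 1.1 were used. No source used here names the peak caller or its threshold.

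Starts were made 1-based. Genes came from the RefSeq table of GRCm38.p6. Of 49943 gene rows, 340 ending below 3 Mb on chromosomes other than Y, which lie on unplaced scaffolds, were left out. This left 49603 genes, 21779 of them protein-coding. Strands and promoters came from RefSeq promoter windows of the same build. Peaks were assigned by midpoint, and a gap runs from edge to edge. Python 3.11.15 with pandas 2.3.3 was used. On simulated data, added peaks were all counted for 200 of 200 genes. No test was run, since peaks chose the regions and replicates are merged. The shares over all genes give the background of each count and, at the syndecans, support nothing, as the peaks were used in the choice. Intervals are 95% Wilson intervals.

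The members and gene lists were chosen with earlier results of these data known. Named genes were the 4 members, the nearest genes of their peaks and, in each list, the 3 with the highest count within 25 kb, ties going to more peaks within 100 kb and then to the alphabet. All other genes were named after their values were seen: genes with as many peaks or as full a window as Sdc1, neighbours of the members, and the list genes marked so.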

Additional observations from a re-analysis of the deposited data

How the results depend on the processing

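No paired analysis was possible because the list merges MK1 and MK2, and for the same reason no replicate could be left out. Of 72 alternatives, 52 stayed within 1.5 times the reported value. These include the Sdc2 counts, which were 0 at every setting and could not move at a narrower reach or with fewer peaks. Within 10 kb the counts were 6 at Sdc1, 3 at Sdc4 and 0 at Sdc3, and within 25 kb the Sdc3 count was 0. Counting a peak for its nearest gene alone, or keeping peaks of at least the median width, left 3 at Sdc4. The share of protein-coding genes with as many peaks as Sdc1 was 0.335% within 10 kb, 0.0643% within 25 kb and 0.124% within 50 kb. For Sdc4 it was 2.77%, 0.978% and 2.14%, and for Sdc3 it was 100% within 10 or 25 kb, where the count is 0. The longest chain at Sdc1 had 9 peaks when joined within 20 kb and 16 within 50 kb. Joined within 5 kb, only the chain inside the gene stayed whole, as the others had gaps such as 5.216 and 8.533 kb. The division into 3 chains of 4 therefore rests on the 10 kb limit. It also rests on counting as separate peaks the pairs with gaps of 132 bp inside the gene and 293 bp beyond its end. Among peaks of at least the median width, the longest chain at Sdc1 had 3 peaks. The fullest window of 200 kb held 16. Within 100 kb, a peak was counted for 8 of 12 proteoglycan genes (66.7%), 16 of 26 synthesis genes (61.5%) and all 9 trimming and shedding genes. The share of all protein-coding genes at this reach was 55.2%. Joining peaks within 500 bp, chosen after seeing the data, left 11 at Sdc1, which 20 genes (0.0918%) reached. Leaving Sdccag8 out of the cytoplasmic partners, also chosen after seeing the data, kept the count at 5. The unknown depth limits every count of 0.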

Other observations

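Genes of the lysosomal LAPTM and matrilin families stand beside several syndecans, and Pum2 stands beside Sdc1. Their peaks were counted after the map was drawn, with no test. On chromosome 12, Pum2 had 3 peaks inside or within 25 kb, Laptm4a had 3 and Matn3, the gene of a cartilage matrix protein, had 1. On chromosome 4, beside Sdc3, Laptm5 and Matn1 had 0 each. On chromosome 15, Laptm4b and Matn2 had 0 each and were farther from Sdc2, with the nearest peak 90.584 kb from Laptm4b and 159.239 kb from Matn2. On chromosome 2, Matn4 had 1 within 25 kb, the peak just past the end of Sdc4. Of the 3 peaks of Pum2, 2 are counted for Sdc1 as well, so these numbers are not separate from those of the syndecans.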
